A study of Mus musculus with 6 samples.

Results

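The genes described here encode the transport machinery of the primary cilium, the antenna-like organelle that projects from most resting mesenchymal cells and from chondrocytes. They are 35 genes of the intraflagellar transport (IFT) complexes A and B, their kinesin and dynein motors, the BBSome and its helpers, the ciliary GTPase Arl13b, and Evc, Evc2 and Kif7. They were chosen by name and function, with earlier results of these data known. Their rows were taken from a raw read count table of 22609 gene symbols. Ift22 and Ift43 appeared there under the older symbols Rabl5 and 1700019E19Rik, which RefSeq lists as synonyms. All 35 passed the filter on low counts that 13119 genes passed in all.

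Each library held RNA from laser-captured and pooled sections of one zone of the mandibular condyle of CD-1 mice at postnatal day 7. Values were used from 3 libraries of the articular zone (replicates 2, 3 and 4), the superficial layer, and from 2 of the mature zone (replicates 2 and 3), the chondrocyte layer beneath it. A further mature zone library, replicate 4, is labelled as badly mapped and set aside by the authors, and was not analysed here. The zones were recognised by cell morphology, the labels name the same strain, age and tissue for every library and no treatment, and no source used here tells how many animals went into a pool.

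A primary cilium has no ribosomes, so its proteins are carried in and out along the microtubules of its shaft. IFT-B rides with kinesin-2 toward the tip, IFT-A returns with dynein-2 to the base, and the BBSome takes membrane proteins out. Hedgehog signalling in vertebrates runs through this organelle. In mice, loss of Kif3a or Ift88 from cartilage disturbs the growth plate, and in humans, mutations of many IFT genes and of EVC and EVC2 shorten the limbs and ribs.

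The start regions of these genes were searched for the recognition sequence of RFX factors, regulators of ciliary genes in animals. This sequence, the X-box, is a palindrome whose left arm is GTTNCC and whose right arm is GGNAAC. It was searched with 0 to 3 bases between the arms, in windows around the start site, from 250 bases before to 50 after (RefSeq, GRCm38.p6). Such windows were at hand for 32 of the 35 genes; Ift80, Ift81 and Ift122 had none in the table. Both arms were found in 2 of the 32 (6.25%), against 222 of 27025 windows of all genes (0.821%). Among 9206 windows of genes tested in these libraries, 83 held both (0.902%). The window of Bbs7 is shown because it holds the whole palindrome, with its letters in capitals, 5′ to 3′ on the strand of the gene.
Bbs7 (chr3:36613485-36613522, minus strand): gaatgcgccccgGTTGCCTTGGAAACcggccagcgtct

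A single arm spelled GTTGCC, or GGCAAC on the other strand, was found in 13 of the 32 windows (40.6%), against 3423 of all 27025 (12.7%) and 1182 of the 9206 windows of genes tested in these libraries (12.8%). Windows that hold both arms can count here too, as that of Bbs7 did. Of the genes whose levels were compared in full, Kif3a, Ift172, Evc, Ift88 and Wdr35 had an arm. Their log2 fold changes of the articular over the mature zone were, in that order, 1.22, 1.82, 2.00, -0.11 and -0.82. The arm stands in capitals for the first 3 of them.
Kif3a (chr11:53567259-53567288, plus strand): caccccgcaggcGTTGCCccagtctagcgt
Ift172 (chr5:31291097-31291126, minus strand): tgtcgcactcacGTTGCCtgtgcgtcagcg
Evc (chr5:37337047-37337076, minus strand): ctcaggactcagGGCAACctgaacgctcag
The arm lay 98 bases before the start site in Kif3a and 183 bases before it in Evc, and began at the start site in Ift172. The start site used for Kif3a lies inside its RefSeq span, which begins at 53565701. For 28 of the 32 windows, bases after the start site were found in a GENCODE transcript of the gene. The arms are matches of letters and no evidence of binding. The median log2 fold change between the zones was 0.62 for the 13 genes with an arm and 0.09 for the 19 without, a description with no test.

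Total counts were 15449883 to 18884685 in the articular zone libraries and 15555620 to 16302047 in those of the mature zone. The mature zone libraries carried the chondrocyte markers, such as Acan, Col2a1 and Comp. The 13 genes of that list summed to 2151 to 3996 CPM (counts scaled to library size with TMM factors) in the articular libraries, against 26523 and 44585 in the mature ones, and 11 of the 13 were called lower. Of 8 articular zone markers, 2 were called higher, and their sum was 317 to 565 CPM in the articular zone against 57.9 and 144 in the mature zone. Prg4 (lubricin), the defining gene of the joint surface, was nearly absent, with 32, 11 and 57 counts in the articular libraries, against 11 and 0 in the mature ones. Skeletal muscle markers stood apart in both libraries numbered 2, at 1225 CPM in articular zone replicate 2 and 1033 in mature zone replicate 2, against 21.6 to 90.2 in the other 3. The 8 markers of proliferating cells summed to 1539 to 1729 CPM in the articular libraries, against 483 and 769 in the mature ones, 2 of them called higher. The 7 endothelial markers summed to 17.6 to 178 CPM in the articular libraries, against 6.77 and 21.7 in the mature ones, 1 of them called higher. Hypertrophic chondrocyte markers summed to 759 to 1761 CPM in articular against 3855 and 5097 in mature libraries, with 1 of 6 called lower. No marker was called among those of erythroid (75.8 to 278 articular against 32.3 and 58.5 mature CPM), myeloid (405 to 750 against 209 and 448), osteoblast (338 to 932 against 637 and 908) or Schwann cells (10.6 to 20.6 against 25.2 and 62.5), of muscle, or of immediate early genes (70.6 to 110 against 55.1 and 87.9). The part of these cells in the values of the cilium genes was not tested.

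Ift20 was the largest single part of the summed FPKM of the cilium transport genes. The FPKM of all 35, which corrects for gene length, summed to 303 ± 33.7 (SD, n = 3) in the articular zone and to 302 ± 3.44 (SD, n = 2) in the mature zone. Their CPM summed to 1155, 1187 and 1222 in the articular libraries, against 971 and 1082 in the mature ones. The articular sums of CPM were thus all higher than the mature ones, while the sums of FPKM overlapped. Ift20 alone averaged 107 FPKM in the articular and 153 in the mature zone. Without it, a choice made after its values were seen, the other 34 genes summed to 195, 184 and 209 FPKM in the articular libraries, against 167 and 130 in the mature ones, with no overlap and with no test.

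Single genes were compared with edgeR's quasi-likelihood test over all 13119 genes, and called at a p under 0.05 after Benjamini-Hochberg adjustment. The log2 fold change is that of the articular over the mature zone, with its standard error (SE). Of the 35 genes, 1 was called higher in the articular zone, Ift81, and none was called lower. Over all genes tested, 150 were called higher (1.14%) and 243 lower (1.85%). Another 3 cilium genes, Kif3a, Bbs10 and Ift172, had an unadjusted p under 0.05, so that 4 of 35 were higher (11.4%) and 0 lower at that mark, against 10.8% and 9.27% of all genes (20.1% in either direction). The fitted log2 fold change was positive for 23 of the 35 (65.7%, against 53.5% of all genes) and negative for 12, and its median was 0.33, against 0.07 over all genes tested. Without mature zone replicate 2 these medians were 0.18 and 0.17. In 8 of the 35 every articular library lay above every mature one (22.9%, against 21.1% of all genes), and in 3 below (8.57%, against 17.6%). The shares that lay apart and higher, or were higher at an unadjusted p under 0.05, were thus close to those of all genes. Bbs10, which is among both the 4 and the 8, passed the filter on low counts through its articular libraries alone.

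**Figure D1:**
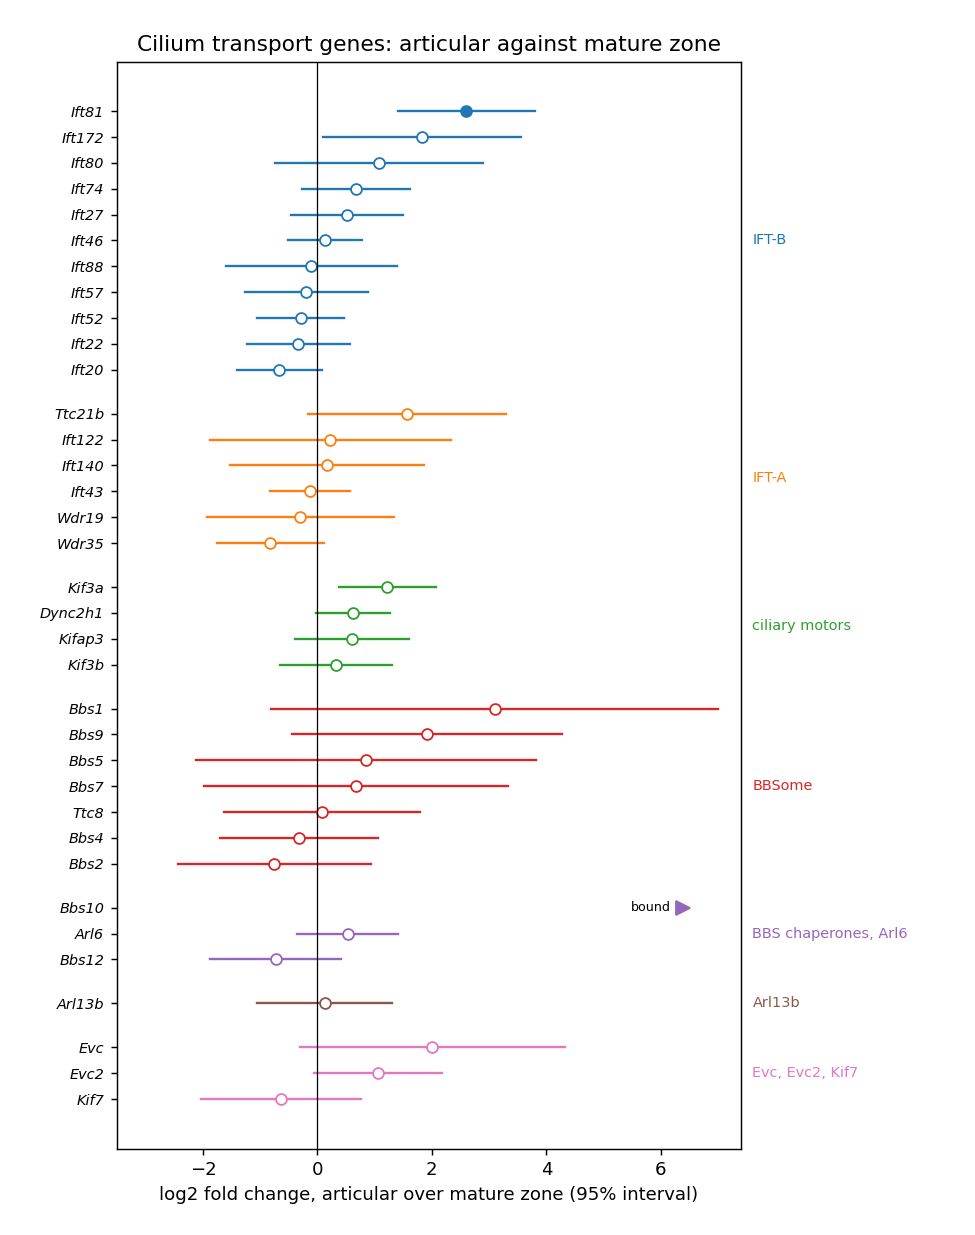
Log2 log2 fold change of each of the 35 genes, articular over mature zone, by complex, with the 95% interval from edgeR's fit (x axis); filled points passed an adjusted p of 0.05 and open points did not. Ift81 alone is filled at 2.60, and 31 of the 35 fitted intervals include 0. The arrow for Bbs10 marks a bound of 6.38 in place of its fit, since its mature zone counts were 0. This bound covers counting error only and not the spread between libraries.

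Ift81 was the 1 cilium transport gene called between the zones. Its protein belongs to the core of IFT-B and, in a pair with Ift74, binds tubulin, the main cargo of a growing cilium. Ift81 (chr5:122540265-122614546, GRCm38.p6) had 729, 439 and 668 counts in the articular libraries, against 65 and 99 in the mature ones. Every articular library was thus well above both mature libraries, and neither zone spread by more than 1.65-fold. Its level was 34.5 ± 7.18 CPM (SD, n = 3) in articular and 5.66 ± 1.97 (SD, n = 2) in mature libraries, a ratio of means of 6.09. The log2 fold change was 2.60 (SE 0.52, 95% interval 1.41 to 3.80, adjusted p = 0.0407 from edgeR). Fewer cells with the transcript and less of it per cell cannot be told apart in such pooled sections.
The Ift81 difference was between 1.75 and 3.01 on the log2 scale in every setting tried, while the call was lost in 8 of 16. With articular zone replicate 2, 3 or 4 left out, the adjusted p was 0.178, 0.110 and 0.172 at log2 fold changes of 2.44, 2.75 and 2.63. Without mature zone replicate 3 it was 0.0584, and without mature zone replicate 2 it passed (0.0417). Without both libraries that carried muscle markers the log2 fold change was 2.12 and the adjusted p 0.0554.

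Other fits changed the number called. With DESeq2, Bbs10, Ift81 and Kif3a were called higher (8.53% of all genes given an adjusted p) and none lower (6.05%); without mature zone replicate 2, Bbs5, Evc and Ift81 were (6.57% of all genes); and without both replicate 2 libraries, Bbs5, Bbs10, Evc, Ift74 and Ttc21b were (8.49%). None was called with limma-voom (0.656% of all genes), on unfiltered FPKM (0%), without articular zone replicate 2 (0.12%), 3 (0.203%) or 4 (0%), or without mature zone replicate 3 (0.449%).

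The partners of Ift81 in IFT-B differed in size and in sign. Of the 11 genes, 6 had a positive and 5 a negative log2 fold change, from -0.67 for Ift20 to 2.60 for Ift81. Ift74, the tubulin-binding partner, had 713, 988 and 1324 counts in the articular libraries, against 724 and 328 in the mature ones, a log2 fold change of 0.68 (SE 0.41, 95% interval -0.27 to 1.62, adjusted p = 0.412 from edgeR). Its zones overlapped, since articular replicate 2 lay at 41.1 CPM and mature replicate 2 at 47.6.
Ift172, a peripheral IFT-B subunit that acts in the turnaround at the ciliary tip (chr5:31253279-31291391), had 228, 656 and 1117 counts in the articular libraries, against 78 and 221 in the mature ones. Articular replicate 2, at 13.2 CPM, fell below mature replicate 3, at 15.8, so the zones overlapped. The log2 fold change was 1.82 (SE 0.75, 95% interval 0.10 to 3.55, adjusted p = 0.225).
Ift80, another peripheral subunit and a gene of human Jeune syndrome, had 386, 222 and 422 counts in the articular libraries, against 42 and 216 in the mature ones, with a log2 fold change of 1.08 (SE 0.79) and overlapping zones.
Ift88, the subunit mutated in a mouse model of polycystic kidney disease (chr14:57424064-57517936), had 512, 467 and 453 counts in the articular libraries, against 139 and 696 in the mature ones. The mature libraries lay on either side of the tight articular group, at 9.13 and 49.6 CPM against 22.8 to 29.5. No direction could be given: the log2 fold change was -0.11 (SE 0.65, 95% interval -1.60 to 1.39), 1.58 without mature zone replicate 3 and -0.86 without mature zone replicate 2.
Ift20, which also works at the Golgi (chr11:78536361-78541732), was the highest of the 35 genes per length and had the lowest log2 fold change of IFT-B. It had 1602, 2887 and 2512 counts in the articular libraries, against 2521 and 3642 in the mature ones. Articular replicate 3, at 183 CPM, exceeded mature replicate 2, at 166. The log2 fold change was -0.67 (SE 0.32, 95% interval -1.41 to 0.07, adjusted p = 0.295).
The other 6 genes, the GTPase genes Ift22 and Ift27 and the structural subunits Ift46, Ift52 and Ift57 among them, had log2 fold changes from -0.33 for Ift22 to 0.68 for Ift74. Of these, Ift46 (log2 fold change 0.14, 95% interval -0.51 to 0.78) had an interval that kept within 1 log2 unit on either side of 0, as among all 35 only Ift43 of IFT-A also did (log2 fold change -0.13, -0.83 to 0.57).

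IFT-A, the complex of the return path, showed no called gene and a median log2 fold change of 0.02 over its 6 genes. Its ends were Ttc21b and Wdr35. Ttc21b, a subunit whose mouse mutation disturbs hedgehog signalling, had 238, 283 and 488 counts in the articular libraries, against 150 and 39 in the mature ones, all articular CPM above the mature ones (log2 fold change 1.57, SE 0.75, 95% interval -0.16 to 3.29, adjusted p = 0.292). Wdr35, a subunit mutated in human short-rib syndromes (chr12:8973998-9028848), had a log2 fold change of the opposite sign. It had 372, 485 and 365 counts in the articular libraries, against 760 and 462 in the mature ones, with every articular CPM (18.4 to 30.7) below both mature ones (32.9 and 49.9). Its log2 fold change was -0.82 (SE 0.41, 95% interval -1.76 to 0.12, adjusted p = 0.310).
Ift43, Ift122, Ift140 and Wdr19 overlapped between the zones. For Ift122 and Ift140 the 2 mature libraries stood 6.98-fold and 5.35-fold apart and in opposite order: Ift122 had 356 and 47 counts in mature replicates 2 and 3, and Ift140 had 106 and 523.

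All 4 motor genes had a positive log2 fold change, and none was called. Kif3a, a motor subunit of kinesin-2 (chr11:53565701-53604248), had 841, 616 and 777 counts in the articular libraries, against 302 and 229 in the mature ones. Its libraries agreed closely within each zone, at 39.0 to 48.5 CPM in the articular and 16.3 and 19.8 in the mature zone, with no overlap. Its level was 42.2 ± 5.48 CPM (SD, n = 3) in articular against 18.1 ± 2.49 (SD, n = 2) in mature libraries, a log2 fold change of 1.22 (SE 0.37, 95% interval 0.37 to 2.07). The adjusted p was 0.125 from edgeR and 0.0105 from DESeq2, which called 1149 genes higher.
Kif3b, the partner motor of Kif3a, had 858, 675 and 458 counts in the articular libraries, against 413 and 477 in the mature ones (log2 fold change 0.33, SE 0.42), and Kifap3, the accessory subunit that joins the pair to cargo, had 1271, 600 and 1015 articular against 728 and 327 mature counts (log2 fold change 0.60, SE 0.44). Both overlapped between the zones. Dync2h1, the heavy chain of dynein-2 and a gene of human short-rib dysplasia, had 1759, 1421 and 1933 counts in the articular libraries, against 1163 and 689 in the mature ones. Its zones did not overlap, at 89.9 to 101 CPM in articular against 49.1 and 76.4 in mature libraries (log2 fold change 0.62, SE 0.28, 95% interval -0.03 to 1.26, adjusted p = 0.271).

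**Figure D2:**
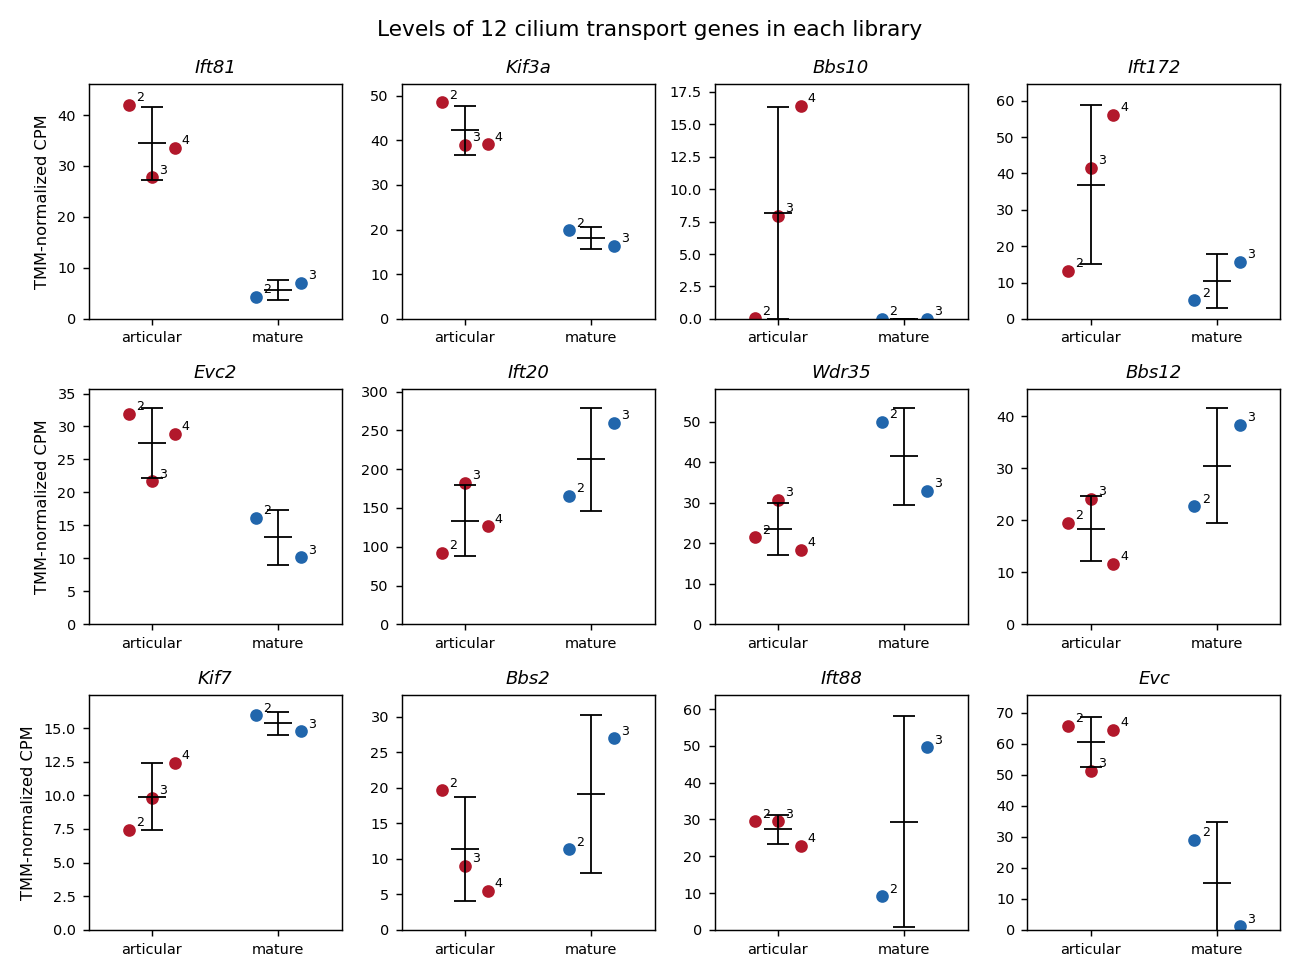
TMM-normalized CPM (y axis, from 0) of the 12 genes described in full, in each library of the articular (red) and the mature zone (blue), with the replicate number beside each point; black bars are the mean ± SD. Ift81, Kif3a, Bbs10, Evc2 and Evc lay apart and higher in the articular zone, and Wdr35 and Kif7 lay apart and lower. For Bbs10 this rested on 1 count in articular replicate 2, against 0 in both mature libraries. The genes shown include those picked for the smallest p in each direction, which favours such separation. Ift88 and Evc spread widely between the 2 mature libraries.

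BBSome genes were low in level and scattered between libraries. The BBSome is a coat of several subunits that lifts receptors out of the cilium, and its loss causes Bardet-Biedl syndrome in humans. Of its 7 genes, 5 had a positive log2 fold change and none was called. Bbs9 did not overlap, with 110, 154 and 263 counts in the articular libraries, against 16 and 58 in the mature ones (log2 fold change 1.91, SE 1.03, adjusted p = 0.345). Bbs1, which binds the GTPase Arl6, had 24, 199 and 141 counts in the articular libraries, against 1 and 22 in the mature ones; articular replicate 2, at 1.38 CPM, fell just below mature replicate 3, at 1.57.
Bbs2 (chr8:94067952-94099369), a structural subunit, had 340, 143 and 109 counts in the articular libraries, against 172 and 378 in the mature ones, a log2 fold change of -0.75 (SE 0.73, 95% interval -2.43 to 0.93, adjusted p = 0.648) with overlapping zones. Its log2 fold change was 0.01 without mature zone replicate 3.
Bbs5 and Bbs7 had no stable level in the mature zone. Bbs5 had 125 to 408 counts in the articular libraries, against 205 in mature replicate 2 and 4 in mature replicate 3. Bbs7 had 122 to 506 counts in the articular libraries, against 17 in mature replicate 2 and 274 in mature replicate 3. Their 95% intervals ran from -2.12 to 3.82 and from -1.97 to 3.32.

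Of the BBSome's helpers, Bbs10 was the most uneven of the 35 genes. Bbs10 and Bbs12 encode chaperonin-like proteins that assemble the BBSome. Bbs10 (chr10:111298679-111301736) had 1, 126 and 327 counts in the articular libraries, against 0 and 0 in the mature ones. Its detection thus rested on articular replicates 3 and 4, since replicate 2 was at 0.06 CPM. Against a floor of 3 counts over both mature libraries it was at least 83.5-fold higher over the articular zone, and at least 37.3-fold without articular replicate 4, a bound for counting error only. It did not pass in edgeR (adjusted p = 0.140) and did in DESeq2 (adjusted p = 0.00135).
Bbs12 (chr3:37312547-37321450) had 338, 381 and 232 counts in the articular libraries, against 346 and 538 in the mature ones, with overlapping CPM (log2 fold change -0.73, SE 0.50, 95% interval -1.87 to 0.42, adjusted p = 0.475). Arl6, the GTPase that brings the BBSome to membranes, had 856, 453 and 968 counts in the articular libraries, against 483 and 375 in the mature ones (log2 fold change 0.53, SE 0.38, adjusted p = 0.503). Arl13b, a GTPase of the ciliary membrane mutated in human Joubert syndrome, had 234, 329 and 529 articular against 240 and 301 mature counts (log2 fold change 0.13, SE 0.51). Its articular and mature levels, 20.3 ± 6.57 and 18.6 ± 4.02 CPM, lay within each other's spread.

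Evc and Evc2 stood higher in every articular library than in either mature library, and Kif7 lower. Evc and Evc2 form a complex at the base of the cilium that passes the hedgehog signal on from Smoothened, and EVC and EVC2 are the human genes of Ellis-van Creveld syndrome. The mouse genes are neighbours on chromosome 5 and point away from each other, Evc from 37288970 to 37336947 and Evc2 from 37338478 to 37425055. The start sites used for their windows, 37336881 and 37338478, are 1597 bases apart, and the arm printed above for Evc lies between them.
Evc had 1141, 812 and 1283 counts in the articular libraries, against 442 and 16 in the mature ones. The articular level was even, at 60.6 ± 8.01 CPM (SD, n = 3), while the mature libraries were at 29.0 and 1.14. The log2 fold change was 2.00 (SE 1.00, 95% interval -0.31 to 4.32, adjusted p = 0.315). Its size turned on the mature library used: it was 1.06 (adjusted p = 0.205) without mature zone replicate 3 and 5.72 (adjusted p = 0.00395) without mature zone replicate 2, a fit that called 843 genes higher (6.57%) and takes the lone mature library to vary like the articular ones.
Evc2 had 554, 343 and 574 counts in the articular libraries, against 246 and 143 in the mature ones. Its mature libraries were 1.59-fold apart, against 25.5-fold for Evc. The level was 27.5 ± 5.27 CPM (SD, n = 3) in articular against 13.2 ± 4.22 (SD, n = 2) in mature libraries, a log2 fold change of 1.06 (SE 0.48, 95% interval -0.05 to 2.18, adjusted p = 0.270).
Kif7, the kinesin that sets Gli factors in place at the ciliary tip (chr7:79698098-79715772), had 129, 155 and 247 counts in the articular libraries, against 243 and 207 in the mature ones. All articular libraries were below the mature ones, at 9.89 ± 2.49 CPM (SD, n = 3) against 15.4 ± 0.85 (SD, n = 2), with a log2 fold change of -0.63 (SE 0.61, 95% interval -2.04 to 0.77, adjusted p = 0.643). Exons of other genes on the opposite strand, Ticrr among them, overlap 20.3% of its exons, and no source used here says whether counting used strand.

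Between genes, levels were compared as FPKM, which is per length. Ift20 was far above the rest, at 71.0, 147 and 103 FPKM in the articular libraries, against 133 and 174 in the mature ones. Next came, articular against mature libraries, Ift43 (34.7 ± 4.10 FPKM, SD, n = 3, against 32.3 ± 0.66, SD, n = 2), Ift22 (18.9 ± 2.25 against 21.1 ± 3.45) and Ift27 (18.5 to 23.0 against 7.29 and 18.7). Ift22 and Ift27 did not differ beyond their spread in this order. The median of the 35 genes, with the zones weighted equally, was 2.57 FPKM, and 31 genes averaged at least 1 over the libraries.
Subunits of one complex were thus far apart in transcript level. In IFT-B, Ift20 at the top stood against Ift80 at the bottom, with 0.90 to 1.37 FPKM in the articular libraries, against 0.21 and 0.69 in the mature ones. In IFT-A, Ift43 stood against Wdr19, with 0.67 to 0.93 FPKM in the articular and 0.80 and 1.19 in the mature libraries. At the low end, Bbs1 was at 0.10, 0.44 and 0.38 FPKM in the articular zone and at the floor of 0.1 in both mature libraries.
The summed FPKM of 3 groups was higher in every articular library than in either mature library. It was 11.8 to 15.6 in articular against 5.46 and 9.35 in mature libraries for the 4 motor genes, 13.8 ± 2.39 (SD, n = 3) against 8.65 and 10.4 for Bbs10, Bbs12 and Arl6, and 12.7 ± 2.06 (SD, n = 3) against 2.90 and 7.99 for Evc, Evc2 and Kif7. The separation of Bbs10, Bbs12 and Arl6 rested on Bbs10, since Bbs12 and Arl6 each overlapped between the zones. Without Bbs10, the FPKM of articular replicate 3 fell just below that of mature replicate 2. As summed CPM, this group overlapped even with Bbs10, at 60.7 to 76.8 in articular against 54.5 and 65.1 in mature libraries. The CPM sums of the motor genes (209 to 273 against 123 and 171) lay apart. So did those of Evc, Evc2 and Kif7 (82.8 to 106 against 26.1 and 61.2). In the group of Evc and Evc2, Kif7 went the other way in CPM. The sum of IFT-B (161 to 238 articular against 219 and 234 mature), of IFT-A (41.4 to 49.6 against 39.6 and 43.1) and of the BBSome (13.5 ± 2.28, SD, n = 3, against 8.60 and 12.4) overlapped. The overlap of IFT-B rested on Ift20, a gene left out only after its values were seen, and with no test. Without Ift20 the sums were 90.3, 91.0 and 107 FPKM in the articular libraries, against 86.0 and 59.9 in the mature ones.

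**Figure D3:**
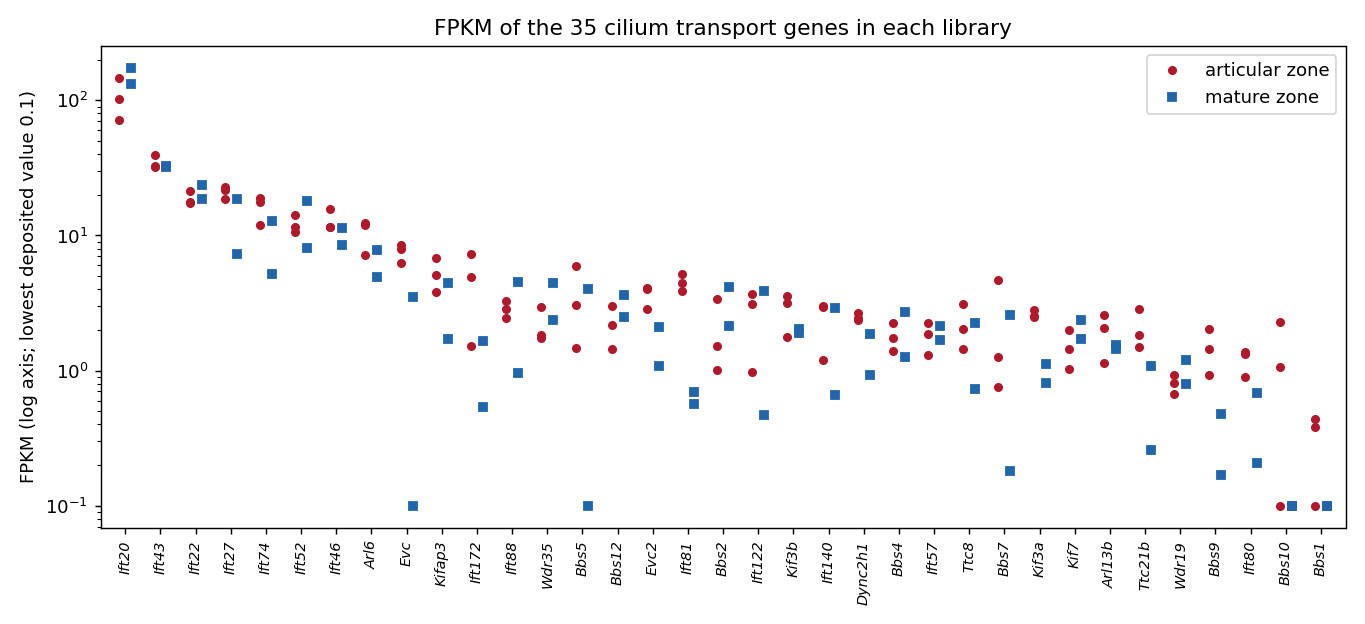
FPKM (y axis, log scale, lowest deposited value 0.1) of the 35 genes in the 3 articular (red circles) and 2 mature zone libraries (blue squares), ordered by the mean of the zones. Ift20 lies at 71.0 to 174, the median gene at 2.57, and Evc, Bbs5, Bbs10 and Bbs1 touch the floor in at least 1 mature library.

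Much of the spread lay between the 2 mature libraries. Leaving Bbs10 aside, they were more than 2-fold apart for 17 genes (48.6% of the 35, against 38.3% of all genes tested) and more than 4-fold apart for 8 (22.9%, against 22.1%). These 8 were Ift80, Ift88, Ift122, Ift140, Bbs1, Bbs5, Bbs7 and Evc. Neither library was the low one throughout: replicate 2 was higher for 17 genes (50.6% of all genes tested) and replicate 3 for 17. The 3 articular libraries were more than 4-fold apart for 4 genes (21.4% of all genes tested), Ift172, Bbs1, Bbs7 and Bbs10. The median biological coefficient of variation was 0.459 for the 35 genes and 0.475 over all genes tested.

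**Figure D4:**
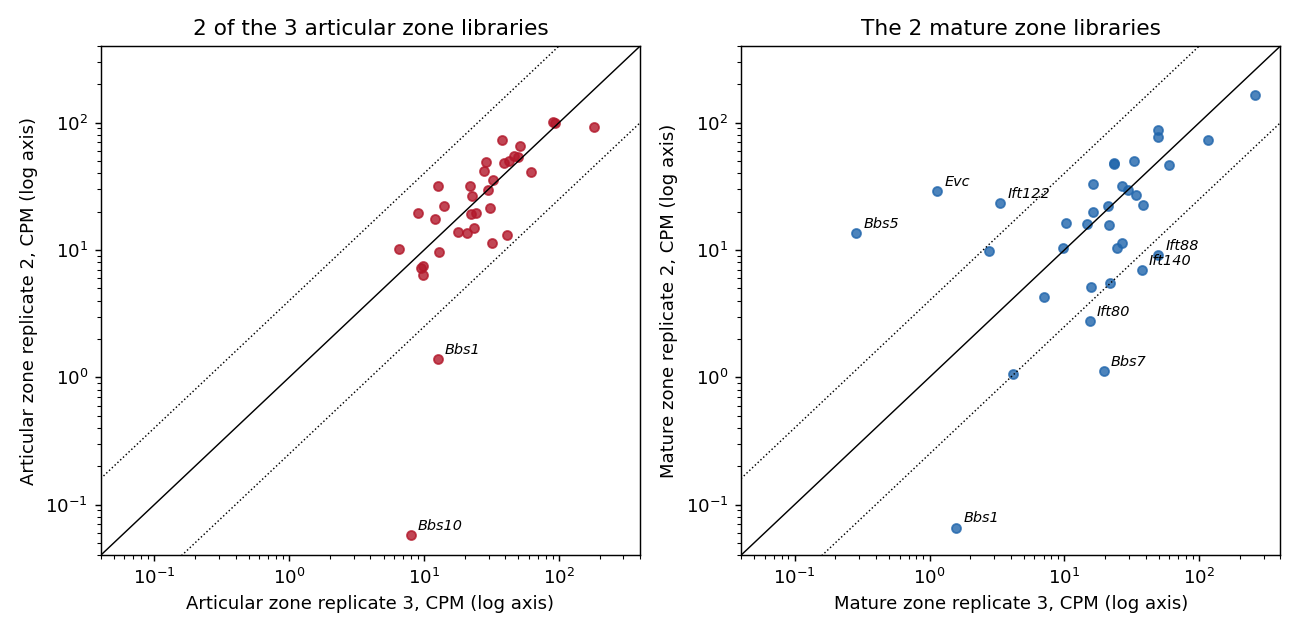
CPM of the cilium transport genes in replicate 2 (y axis) against replicate 3 (x axis), both log scale, for the articular zone (left) and the mature zone (right); the solid line marks equal levels and the dotted lines a 4-fold difference, and genes with 0 CPM are not drawn. In the mature zone 8 named genes fall outside the dotted lines, on both sides, and in the articular zone Bbs1 and Bbs10 do.

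The other genes of the cilium, taken from 7 lists, showed 1 call among them, Ehd3, and it was lower. Over all genes tested, 1.14% were called higher and 1.85% lower. None of 15 further IFT, motor and BBS genes tested was called, nor any of 22 transition zone genes, 14 genes of the ciliary membrane and lipid cargo, 10 of cilium disassembly, 15 of the hedgehog pathway or 6 of RFX and ciliary transcription factors. Counts at an unadjusted p under 0.05 in edgeR were 0 higher and 1 lower for the first of these lists, and 2 and 1, 2 and 0, 3 and 0, 5 and 2, and 1 and 0 for the next 5. Among 27 genes of the basal body and cilium assembly, 5 were higher and 2 lower at that mark. Over all genes tested, 10.8% were higher and 9.27% lower there, and no list was tested as a set. Median log2 fold changes ran from 0.14 for the transcription factors to 0.77 for the disassembly genes, 0.07 being that of all genes tested.
Ehd3, a membrane-shaping protein with a part in early cilium assembly, had 732, 1391 and 1314 counts in the articular libraries, against 4097 and 4580 in the mature ones, well apart (log2 fold change -2.19, SE 0.31, adjusted p = 0.0151 from edgeR). Without mature zone replicate 3, 0 genes of these lists were called in either direction. Without mature zone replicate 2, more of them were called than with all libraries, and so were more of all genes. Each of these fits leaves 1 mature library. Cc2d2a, a transition zone gene of human Joubert syndrome, had 894, 745 and 830 articular against 304 and 201 mature counts (log2 fold change 1.45, SE 0.37, adjusted p = 0.0849). Aurka, the mitotic kinase that also starts cilium disassembly, had 994, 1157 and 2037 articular against 579 and 279 mature counts (log2 fold change 1.42, SE 0.41, adjusted p = 0.113). Its level moved with the proliferation markers given above, and their part was not tested.
Lztfl1, a partner that holds the BBSome back from the cilium, had 551, 485 and 682 articular against 545 and 1328 mature counts (log2 fold change -1.02, SE 0.42, adjusted p = 0.230). Tub had 47, 175 and 119 articular against 0 and 1 mature counts (adjusted p = 0.0927), and Rfx5, known for MHC class II genes, had 677, 234 and 440 articular against 97 and 75 mature counts (log2 fold change 2.11, SE 0.63, adjusted p = 0.122). Ihh, the hedgehog ligand of chondrocytes, had 0, 1 and 41 articular against 996 and 451 mature counts (adjusted p = 0.0736). All 4 lay apart between the zones, but each was picked as the gene of its list with the smallest p, which favours such separation. Over all genes tested, 21.1% lay apart and higher and 17.6% apart and lower.
The X-box arm was also common in the windows of the machinery lists, at 42.9% of 14 for the further IFT genes, 42.1% of 19 for the transition zone and 38.5% of 26 for the basal body. It was found in 0 of 12 windows of hedgehog genes and in 8.33% of 12 for the ciliary membrane, 20% of 10 for disassembly and 44.4% of 9 for the transcription factors. Both arms stood in 21.4% of the windows of the further IFT genes, 21.1% for the transition zone and 11.5% for the basal body. No window of the other 4 lists held both.
Markers of multiciliated cells, which carry motile cilia, summed to 97.6 to 166 CPM in the articular libraries, against 79.4 and 140 in the mature ones. Of these 20, 7 had 0 counts in every library and 7 were tested with none called (2 higher and 0 lower at an unadjusted p under 0.05 in edgeR). Foxj1, their defining regulator, had 0, 0 and 2 counts in the articular libraries, against 0 and 0 in the mature ones.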

How the data were processed

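The authors trimmed single-end poly(A) reads with Trimmomatic 0.32 and mapped them to mm10 with SHRiMP; no source used here names the counting tool or whether it used strand. They deposited raw counts per gene symbol, not normalized, and FPKM for 22462 symbols, scaled by the authors for gene length and mapped fragments with 0.1 as the lowest value. Their table of DESeq results holds their own comparison and was not used.

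Here, counts were analysed with edgeR 4.0.16 (R 4.3.3). A gene was tested where 2 or more libraries held 10 or more counts, after TMM normalization (estimateDisp, robust glmQLFit, glmQLFTest; zone as sole factor, 3 residual degrees of freedom), and p-values were adjusted over all genes tested. The SE was the fold change divided by the root of F, and 95% intervals used the t distribution. The procedure was tested on simulated data. Replicates are pools described as independent; if they are not, p-values measure technical spread. No set test was run.

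The 35 genes and all lists were chosen with earlier results of these data known. Described in full were called genes, the 5 with the smallest p in each direction, and Ift88, Kif3a, Kif7, Evc and Evc2; counts of other members, and Acan, Col2a1, Comp, Prg4 and Foxj1 as markers, were added after their values were seen. From each other list came the genes called or the one with the smallest p. The markers covered articular, mature and hypertrophic zones, muscle, erythroid, myeloid, endothelial, osteoblast, Schwann, proliferating and multiciliated cells, immediate early genes and mitochondrial transcripts, which had no match. Other settings were other normalizations and filters, the replicate number as a block, limma 3.58.1 (voom, or log2 of FPKM plus 1 or 0.1), DESeq2 1.42.0, and libraries left out. Exon overlaps are from GENCODE M21, and tables and figures were made with Python 3.11.15. The sequence of 1 promoter with the whole motif is not reported here.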

Additional observations from a re-analysis of the deposited data

How the results depend on the processing

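The number of cilium transport genes called higher was 1 as reported, 0 with the replicate block, limma-voom or unfiltered log2(FPKM + 1), 3 with DESeq2 (Bbs10, Ift81, Kif3a) and 5 without both replicate 2 libraries (Bbs10, Bbs5, Evc, Ift74, Ttc21b), a fit with 1 residual degree of freedom; with 1 library left out it ran from 0 to 3. Their median log2 fold change ran from 0.18 to 0.65, and that of all genes moved too: it was 0.18 against 0.17 over all genes without mature zone replicate 2, 0.33 against 0.21 with DESeq2 and 0.43 against 0.17 with upper-quartile normalization. The cause of these changes was not tested.

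Over all genes, 150 were higher and 243 lower. The counts were 251 higher without a count filter, 230 with 10 counts in every library, 81 higher and 145 lower with the replicate block, 86 higher with limma-voom, 1149 and 815 with DESeq2, 275 higher with log2(FPKM + 1), 135 lower with log2(FPKM + 0.1), 0 and 1 with unfiltered FPKM, and 1024 and 567 without both replicate 2 libraries. With 1 library left out they ran from 0 to 843 higher and from 13 to 446 lower. The other cilium lists gave 0 to 9 genes higher and 0 to 2 lower with 1 library left out. The 9 and 2 came without mature zone replicate 2, a fit that leaves 1 mature library. Over all genes, that same fit gave the 843 higher (6.57%) and the 446 lower, so a rise in calls was not particular to these lists.

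Among 187 values of the 12 genes described in full, 166 had the direction and side of the threshold reported, 8 lost the call (all Ift81), 5 gained one and 8 changed sign. Ift88 changed to 0.46 with the replicate block, 0.38 with limma-voom, 0.22 with log2(FPKM + 1), filtered or not, and 0.40 with log2(FPKM + 0.1). With 1 library left out Ift88 ran from -0.86 to 1.58 (0.012 without articular replicate 4), and Bbs2 from -1.39 to 0.0096. Ift81 had an adjusted p of 0.133 with the replicate block and 0.0952 with limma-voom. Deviations of same-numbered libraries from their zone means correlated at 0.145 and 0.131 over 13119 genes, but only 2 pairs exist and the labels tie them by number alone. A bound, with a floor of 3 counts, was the only size given for Bbs10.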
